A study of Rattus norvegicus with 8 samples.

Results

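Control callus cells taken 12 weeks after fracture were set against control callus cells taken at week 4, in 1 single-cell RNA sequencing library a side. Every barcode with at least 5000 unique molecular identifiers (UMIs, 1 for each captured transcript) in the control tables was used. That gave 6809 cells at week 4 and 7777 at week 12, 14586 in all, of the 69624 barcodes in the 8 tables of the series and of the 65208 barcodes there with at least 5000 UMIs. The study followed closed femoral fractures of Sprague Dawley rats under 4 treatments: control, zoledronate (a bisphosphonate, which slows bone resorption), zoledronate with the neuropeptide CGRP, and zoledronate with magnesium (Mg), each at weeks 4 and 12. The labels give the control samples as untreated. A treatment text that all samples share names subcutaneous zoledronate at 0.3 mg/kg each week for 12 weeks before the fracture and a stainless steel or Mg-containing nail in the marrow canal. It does not say which group had which, so the nail of the control rats is open. The sources used here give neither the age and sex of the rats nor the number of animals behind a library. In every sample the callus was digested with collagenase A for 4 hours and the cells were then held in a culture dish for 24 hours, so what was measured are the callus cells that were in the dish after that time.

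A fracture of a long bone heals mostly through a callus, in which cells of the periosteum and marrow first form a fibrous and cartilaginous bridge. Cartilage is then replaced by woven bone, and woven bone is later remodelled to lamellar bone while the callus shrinks. Fibroblastic cells of the callus secrete collagens and small leucine-rich proteoglycans, which coat and space the collagen fibrils, and they send chemokines and growth factors to blood, vessel and bone cells.

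The rule kept 98.9% of the UMIs of each control table. It left out 732 barcodes (9.71%) at week 4 and 652 (7.74%) at week 12. Within 1000 UMIs above the limit lay 46 and 51 cells, and within 1000 UMIs below it 54 and 80 barcodes. The cells held 148169786 UMIs at week 4 and 139656712 at week 12, with a median of 20545 and 17238 UMIs and of 3519 and 3321 genes a cell. The control libraries shared 12 barcodes, 0.176% of the week 4 cells and 0.154% of the week 12 cells. With 1 library a side there is no replicate and no test: each difference below is between these libraries, which week, animals, dish and library preparation all separate. UMIs were summed per gene and scaled to a library sum of 1000000 (counts per 1000000, CPM). The 95% intervals are exact (Poisson for CPM, Clopper-Pearson where a share of cells is given) and cover counting error only. Among genes at 5 CPM or more in both libraries no interval reached more than 7.68% above its value, and at 50 CPM or more none reached more than 2.37% above it.

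The cells of both libraries carried genes of fibroblastic cells. All 10 genes of a fibroblastic marker list were listed at both weeks, at a summed 57802 CPM at week 4 and 36322 CPM at week 12. Some defining markers of other cells were at or near 0, while other members of the same lists were not. The macrophage receptor Csf1r stood at 0.0742 and 0.351 CPM, the endothelial marker Pecam1 at 0.0742 and 0.0931 CPM, the neutrophil gene Camp at 0.0675 and 0.0716 CPM, and Cd3g of T cells at 0 and 0.0573 CPM. The leukocyte gene Ptprc was listed in neither table. Of the 10 T, B and NK cell markers 2 were listed, at a summed 2.48 CPM at week 4 and 0.501 CPM at week 12. Of the 10 macrophage and monocyte markers 5 were listed, at a summed 16.2 CPM at week 4 and 11.4 CPM at week 12. Of the 10 endothelial markers 5 were listed, at a summed 37.3 and 49.6 CPM, of which Egfl7 made up 35.5 and 43.4 CPM. Of the 8 mast cell markers 2 were listed: Mcpt1, a mast cell protease, was not listed at week 4 and stood at 7.19 CPM at week 12, while Kit and Cpa3 were listed in neither. Chondrocyte markers summed to 268 CPM at week 4 and 103 CPM at week 12. Among them Acan stood at 91.2 and 11.9 CPM and Sox9 at 82.7 and 78.0 CPM. Col2a1, the main collagen of cartilage, stood at 0.054 CPM at week 4 and was not listed at week 12. Osteoblast and osteocyte markers summed to 52.1 and 23.0 CPM, and among them Alpl stood at 29.9 and 4.32 CPM and Runx2 at 17.2 and 17.4 CPM. Sp7, a factor that osteoblasts need, stood at 0.0405 CPM at week 4 and was not listed at week 12. Fewer cells of a type and less RNA per cell of it cannot be told apart in such sums.

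Among the genes furthest apart were genes of the secreted matrix in both directions: decorin and lumican were lower at week 12, whereas Col4a1, a chain of type IV collagen, and Esm1, a secreted proteoglycan, were higher. Of the 7236 genes with a mean of at least 5 CPM, all listed in both tables, a 2-fold or larger difference was found upward at week 12 in 198 (2.74%) and downward in 135 (1.87%). With a limit of 1.5-fold, 583 genes (8.06%) were higher and 318 (4.39%) lower. A difference of at least 4-fold was seen upward in 47 genes (0.65%) and downward in 27 (0.373%). The log2 ratio of CPM plus 1, week 12 over week 4, had a median of 0.06 and an SD of 0.50 over these genes. A log2 ratio of 1 is a 2-fold difference, and the added 1 CPM makes the ratio of low genes smaller than the ratio of their counts. Over the same genes the SD of week 12 over week 4 was 0.41 under zoledronate, 0.52 with CGRP and 0.49 with Mg. Genes that passed the mean of 5 CPM are called measured below. The counts describe the size of differences in these libraries.

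**Figure D1:**
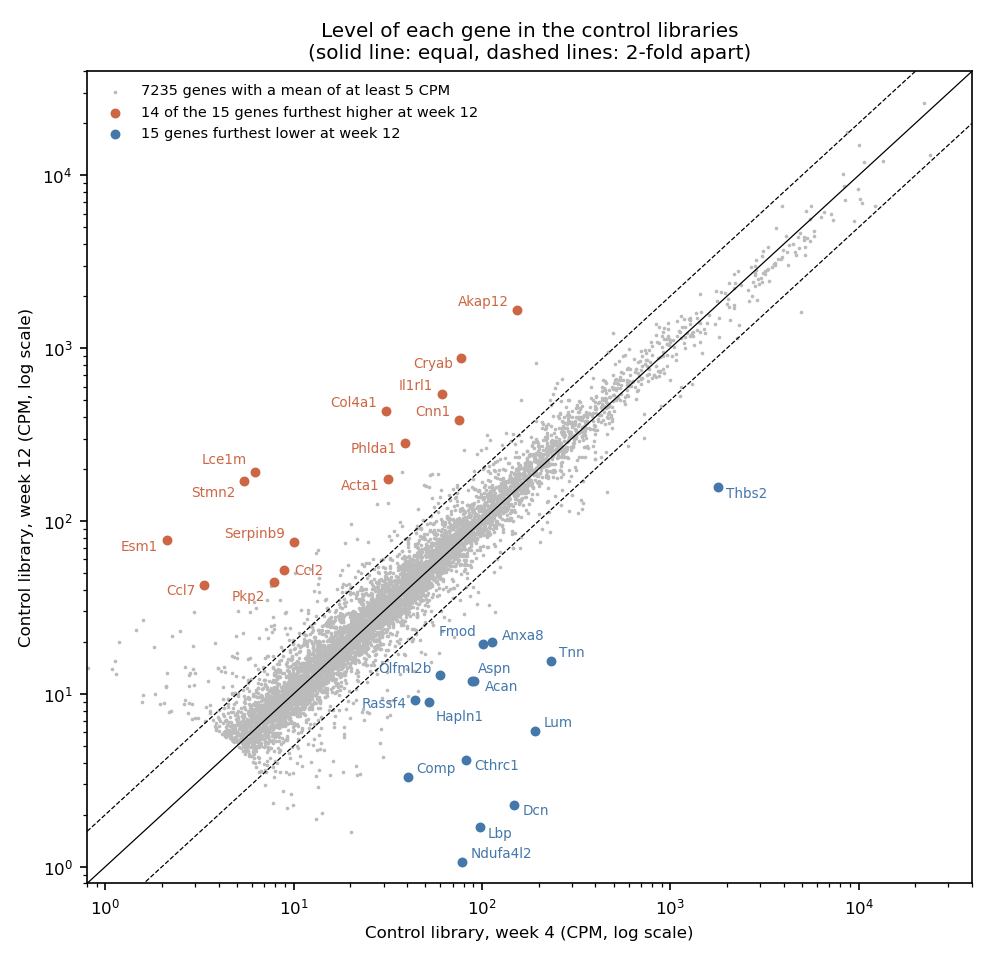
Level of the measured genes in the week 4 control library (x axis, CPM, log scale) and in the week 12 control library (y axis, CPM, log scale), 1 dot a gene. The genes furthest higher (14 of 15 drawn) and the 15 furthest lower at week 12, among genes with a mean of at least 20 CPM, are coloured and named: Thbs2 goes from 1787 to 157 CPM and Akap12 from 154 to 1659 CPM, while most genes lie between the dashed 2-fold lines.

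The proteoglycans that coat collagen fibrils were lower at week 12 without exception among those measured. Of 12 small leucine-rich proteoglycans 8 were listed and 7 had a mean of at least 5 CPM. At least 1.5-fold lower were all 7 (4.39% of all measured genes were), with 6 past 2-fold (1.87%). Their median log2 ratio was -2.37. Decorin (Dcn), which binds fibrillar collagen and TGF beta, stood at 148 CPM at week 4 (95% interval 146 to 150) and at 2.28 CPM at week 12 (2.03 to 2.54), a log2 ratio of -5.50. Lumican (Lum), which sets the diameter of collagen fibrils, stood at 192 CPM (189 to 194) and 6.09 CPM (5.68 to 6.51), a log2 ratio of -4.76. Both stood low at week 12; how far animals differ is not covered by the intervals. Asporin (Aspn) went from 88.4 to 11.9 CPM, fibromodulin (Fmod) from 101 to 19.4 CPM and Prelp from 21.8 to 3.41 CPM. Osteoglycin and biglycan differed least: osteoglycin (Ogn) stood at 596 and 272 CPM, and biglycan (Bgn), a proteoglycan of bone and other connective tissue, at 2309 and 1357 CPM, log2 ratios of -1.13 and -0.77. Omd, whose product osteomodulin lies in mineralised matrix, was under the filter at 4.47 and 1.36 CPM. Summed over the list, the UMIs came to 3460 CPM at week 4 and 1673 CPM at week 12.

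The lower decorin and lumican sums lay in many cells. To compare shares of cells at unequal depth, each cell was thinned to 5000 UMIs, and no cell was left out by this. At least 1 Dcn UMI was then found in 35.1% of the week 4 cells (33.9% to 36.2%) and in 1.13% of the week 12 cells (0.908% to 1.39%). Unthinned, the shares were 60.3% and 2.28%. Lum was found in 45.3% of cells at week 4 (44.1% to 46.5%) and in 2.94% at week 12 (2.58% to 3.34%), and unthinned in 72.1% and 6.88%. Bgn, by contrast, was found in 100% of cells at week 4 and in 99.4% at week 12, so for this gene the libraries differ in UMIs per cell. No cell type that should lack these genes was set apart here, so a background share from free RNA was not measured. Lum was found in 59.6% of the week 4 cells with Dcn (57.6% to 61.6%) and in 37.5% of those without it (36.1% to 39.0%), so the 2 proteoglycans were in part in the same cells.

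**Figure D2:**
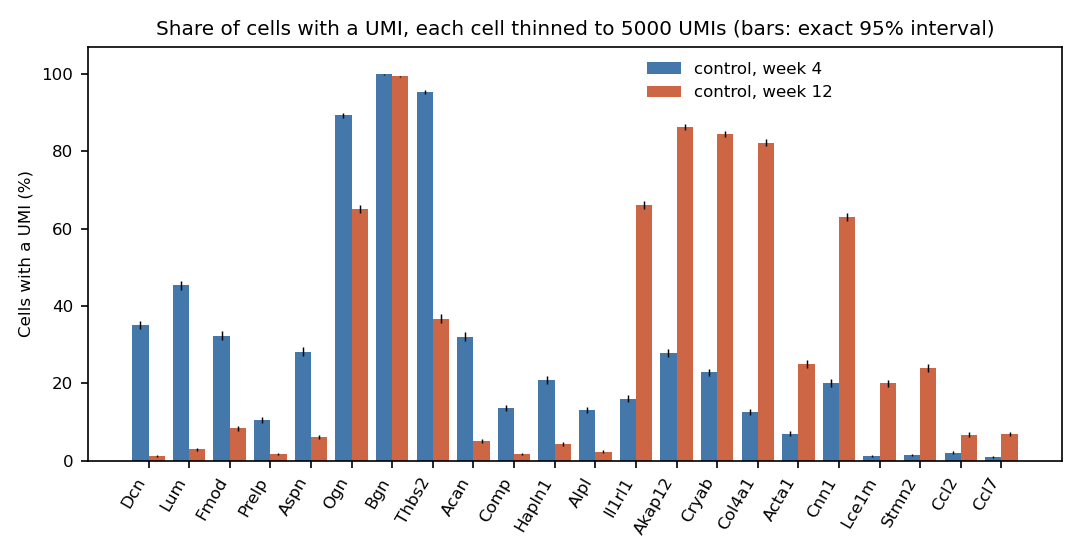
Share of cells with at least 1 UMI of each gene (y axis, percent) after every cell was thinned to 5000 UMIs, for the week 4 and the week 12 control library (bars), with exact 95% intervals that cover counting error only (lines). Matrix genes on the left stand higher at week 4 (Dcn 35.1% against 1.13%), and genes on the right higher at week 12 (Akap12 27.7% against 86.3%), while Ccl2 reaches only 6.67% of cells at week 12.

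Fibrillar and fibril-associated collagens were lower at week 12 as a group, with 1 exception past 1.5-fold. Of 11 measured, 9 were lower and 2 higher, 7 were at least 1.5-fold lower (4.39% of all genes were) and 1 at least 1.5-fold higher, and the median log2 ratio was -0.79. Col1a1 and Col1a2, the chains of type I collagen, the main protein of bone and scar, were both over 1.5-fold lower: Col1a1 stood at 23905 and 13152 CPM and Col1a2 at 12258 and 6675 CPM. The chain Col6a2 of the pericellular type VI collagen was the furthest lower, at 463 and 148 CPM, a log2 ratio of -1.64. Col5a3, of the type V collagen that starts fibrils, stood at 76.7 and 35.1 CPM. Col8a1, of a short-chain collagen found around vessels, was higher at week 12, at 192 and 379 CPM. Per 5000 UMIs of a cell, the list had a median of 228 UMIs at week 4 and 130 at week 12, and its 5th and 95th percentiles were 134 and 378 at week 4 and 69 and 241 at week 12, so the libraries overlapped.

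Enzymes that process and crosslink collagen differed less than the collagens. Of 17 measured, 15 were lower and 2 higher, with a median log2 ratio of -0.21. Past 2-fold were 2 downward (1.87% of all measured genes were) and 1 upward (2.74%). P4ha1, a subunit of the prolyl hydroxylase that stabilises the collagen helix, stood at 345 and 127 CPM, a log2 ratio of -1.43. Adamts2, which cuts the amino end off procollagen, stood at 14.6 and 4.72 CPM. Loxl1, a lysyl oxidase-like enzyme that crosslinks elastin, stood out upward, at 59.8 and 138 CPM, while the lysyl oxidase Lox itself stood at 50.9 and 58.3 CPM.

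Among matricellular proteins, which modulate cells more than they build fibres, both directions were found. Of 16 measured, 11 were lower and 5 higher, and the median log2 ratio was -0.20. At least 2-fold lower were 4 (1.87% of all measured genes were) and at least 2-fold higher 1 (2.74%). Thbs2, thrombospondin 2, which restrains vessel growth and is made by periosteal and callus mesenchyme, stood at 1787 CPM at week 4 (1780 to 1793) and 157 CPM at week 12 (155 to 159), a log2 ratio of -3.50, and was found in 95.4% and 36.7% of thinned cells. Cthrc1, a secreted protein of activated fibroblasts, stood at 82.5 and 4.17 CPM. Sparc (osteonectin), which binds collagen and mineral, stood at 9447 and 5453 CPM. Periostin (Postn), named for the periosteum, was higher at week 12, at 105 and 265 CPM, and fibronectin (Fn1) was level, at 5551 and 5604 CPM. Outside the list, tenascin N (Tnn), a matricellular protein of bone and periosteum, stood at 233 and 15.4 CPM, a log2 ratio of -3.83.

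Of 9 elastic fibre genes measured, 4 were at least 1.5-fold higher at week 12 (8.06% of all measured genes were). Lower by that much were 0 (4.39% of all measured genes were), and 0 reached 2-fold. In all 6 leaned higher and 3 lower, and the median log2 ratio was 0.53. Fbln5, which helps to assemble elastin, stood at 101 and 200 CPM and Mfap5, a microfibril glycoprotein, at 391 and 676 CPM. Ltbp1 and Ltbp2, proteins of the latent TGF beta binding family, stood at 117 and 193 CPM and at 259 and 422 CPM, while fibrillin 1 (Fbn1) went the other way, at 82.3 and 56.7 CPM. Elastin itself (Eln) was at 0.675 and 0.809 CPM. In the basement membrane list 2 of 7 measured genes were at least 2-fold higher and 1 at least 2-fold lower, with a median of 0.11. Of all measured genes 2.74% were at least 2-fold higher and 1.87% at least 2-fold lower. Col4a1, a chain of the type IV collagen sheet, stood at 30.7 CPM at week 4 (29.9 to 31.6) and 434 CPM at week 12 (431 to 438), a log2 ratio of 3.78. It was found in 12.4% of thinned cells at week 4 (11.7% to 13.2%) and in 82.3% at week 12 (81.4% to 83.1%). Nid2, a nidogen that links laminin to type IV collagen, stood at 27.7 and 125 CPM, whereas the laminin chains Lamc1, Lama4 and Lamb2 had log2 ratios between -0.13 and 0.32.

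Matrix genes of cartilage were lower at week 12, while their regulator Sox9 was close to level. Of 22 cartilage genes 17 were listed and 7 measured, and all 7 were lower, with a median log2 ratio of -0.98. At least 1.5-fold lower were 6 (4.39% of all measured genes were) and at least 2-fold lower 3 (1.87%). Aggrecan (Acan), the large proteoglycan that holds water in cartilage, stood at 91.2 CPM (89.7 to 92.7) and 11.9 CPM (11.3 to 12.4), a log2 ratio of -2.84. Comp, a matrix protein of cartilage and tendon, stood at 40.6 and 3.31 CPM and the link protein Hapln1, which ties aggrecan to hyaluronan, at 52.3 and 8.98 CPM. Cilp and Cilp2 were about 2-fold lower, with log2 ratios of -0.98 and -0.96. Sox9, the transcription factor that sets up cartilage cells, was slightly lower, at 82.7 and 78.0 CPM, a log2 ratio of -0.083 whose sign changed under an alternative, while Sox6, which acts with it, was under the filter at 4.05 and 0.365 CPM. Aggrecan was found in 32.1% of the thinned week 4 cells and 4.96% of those at week 12, and unthinned in 65.9% and 10.5%. The summed chondrocyte markers given above moved with these genes, and they share Acan, Comp, Hapln1 and Sox9 with the list.

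The osteogenic list split. Of 20 genes 18 were listed and 7 measured. Of these 7, 3 were at least 2-fold lower (1.87% of all measured genes were) and 0 at least 2-fold higher (2.74%). The median log2 ratio was 0.02, or -0.05 with TMM scaling factors, and over all alternatives it lay between -1.25 and 0.05. Summed over the list, the UMIs came to 1209 CPM at week 4 and 621 CPM at week 12. Alpl, the alkaline phosphatase that frees phosphate for mineral, stood at 29.9 and 4.32 CPM, a log2 ratio of -2.54. Mgp, matrix Gla protein, an inhibitor of calcification, stood at 325 and 112 CPM and osteopontin (Spp1), which binds mineral and osteoclasts, at 724 and 304 CPM. Enpp1, which makes the mineral inhibitor pyrophosphate, was higher at week 12, at 74.0 and 145 CPM, and Ankh, which exports it, stood at 3.87 and 6.34 CPM. Runx2, the master factor of the osteoblast line, was level, at 17.2 and 17.4 CPM. Ibsp, bone sialoprotein, was under the filter at 3.83 and 0.301 CPM.

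Contractile genes leaned upward at week 12. Of 15 measured, 12 were higher and 3 lower, and the median log2 ratio was 0.29. At least 1.5-fold higher were 5 (8.06% of all measured genes were), and 4 of these at least 2-fold (2.74%). Cnn1, calponin, a regulator of actin and myosin in smooth muscle, stood at 75.8 CPM (74.4 to 77.2) and 385 CPM (381 to 388), a log2 ratio of 2.33, and was found in 20.1% and 63.1% of thinned cells. Myh11, the smooth muscle myosin heavy chain, stood at 10.9 and 30.5 CPM. Other members differed little: Acta2, the actin of myofibroblasts, stood at 2296 and 2802 CPM and transgelin (Tagln) at 8311 and 10146 CPM, both with a log2 ratio of 0.29. Actg2, the enteric smooth muscle actin, leaned the other way, at 80.4 and 59.3 CPM. Acta1, the actin of skeletal muscle, stood at 31.6 and 174 CPM, a log2 ratio of 2.43. Of the 10 skeletal muscle markers 6 were listed, at a summed 35.7 and 177 CPM, nearly all of it Acta1. Tnnt3, a troponin of fast muscle, stood at 2.36 and 1.07 CPM and Myh3, an embryonic muscle myosin, at 0.52 and 0.301 CPM. Cnn1 was found in 41.2% of the week 4 cells with Acta1 and 18.5% of those without, and in 78.2% and 58.1% at week 12. Pericyte and smooth muscle markers, 7 of 10 listed, summed to 50.3 and 79.5 CPM. The list's defining channel genes Abcc9 and Kcnj8 stood at 0.115 and 1.37 CPM and at 0.148 and 1.42 CPM, and the part of such cells in the contractile genes was not tested.

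Genes that cells raise when they spread and pull on their support leaned the same way. A list of YAP and mechanical targets was used, where YAP is a pathway by which cells read tension. Of its 10 measured genes 9 were higher and 1 lower, with a median log2 ratio of 0.69. At least 1.5-fold higher were 6 (8.06% of all measured genes were), and 3 at least 2-fold (2.74%). F3, tissue factor, the starter of clotting, stood at 193 CPM at week 4 (191 to 195) and 817 CPM at week 12 (812 to 822), a log2 ratio of 2.08. Nuak2, a kinase that acts on actomyosin, stood at 13.5 and 43.4 CPM, while the best known targets Ctgf and Cyr61 were close, at 4275 and 3964 CPM and at 341 and 401 CPM. Of 13 genes for integrins and focal adhesions 10 were higher, with a median of 0.40. Of these 4 were at least 1.5-fold higher (8.06% of all measured genes were). Vinculin (Vcl), which ties talin to actin, stood at 267 and 661 CPM and the collagen receptor chain Itga1 at 11.8 and 27.0 CPM.

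**Figure D3:**
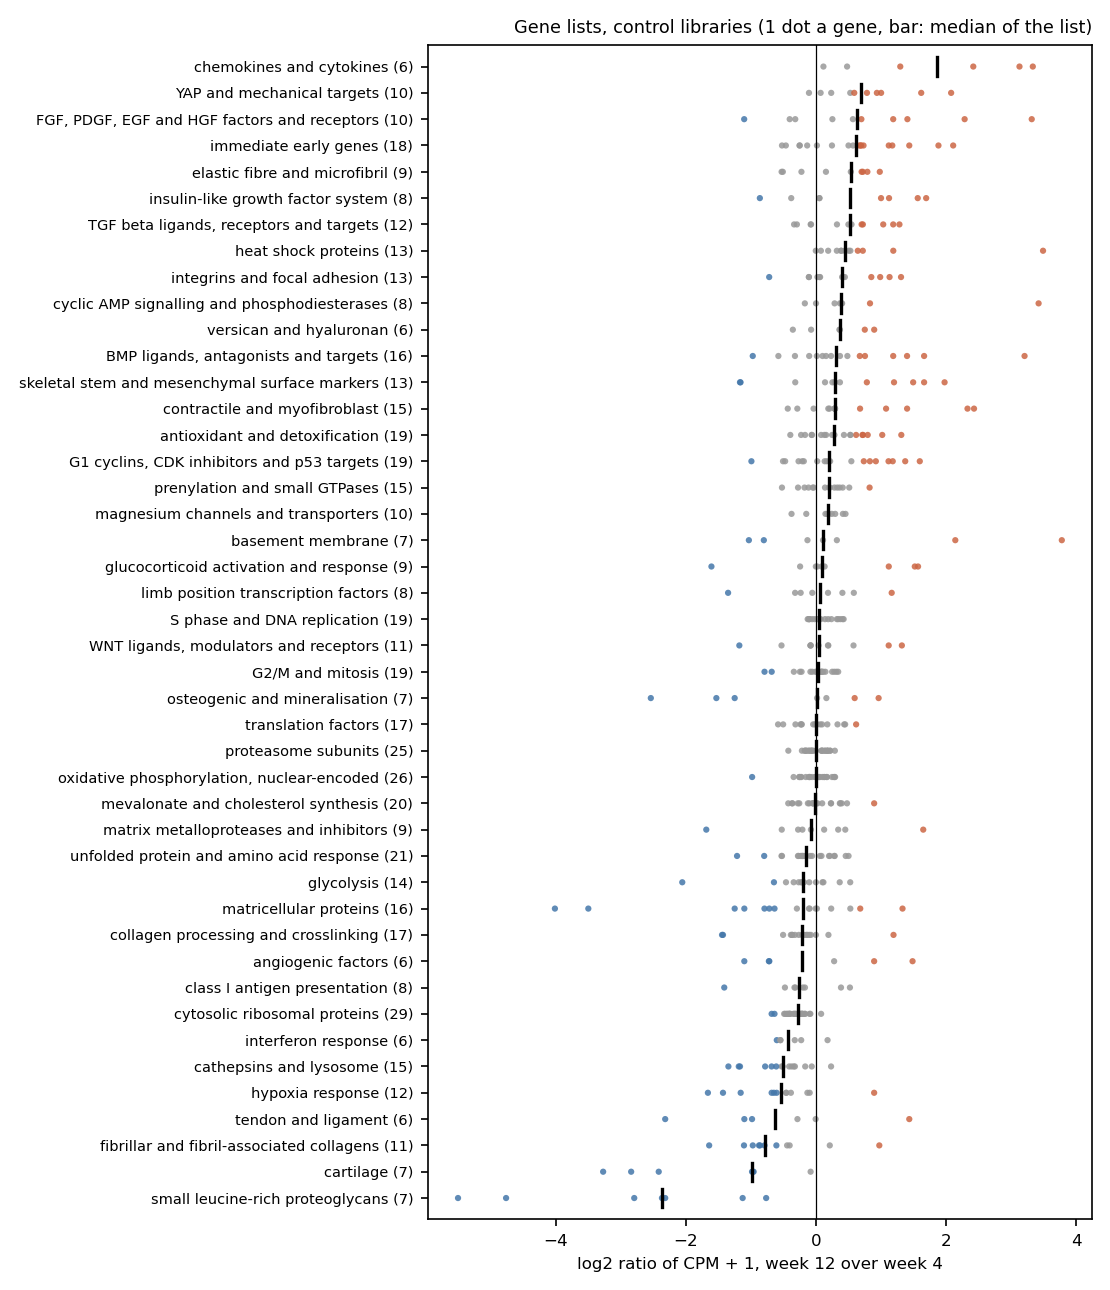
Log2 ratio of CPM plus 1, week 12 over week 4 of the control libraries (x axis), for each measured gene (dots; orange at least 1.5-fold higher, blue at least 1.5-fold lower, grey between) of the pathway lists with at least 6 measured members, and the median of each list (black bars), with the number of genes in brackets. Chemokines and cytokines have the highest median (1.86) and small leucine-rich proteoglycans the lowest (-2.37), while proteasome subunits stay within the 1.5-fold limits.

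Chemokines and cytokine receptors stood highest among the lists. Of 22 genes 18 were listed and 6 measured: all 6 were higher at week 12 and 4 at least 2-fold (2.74% of all genes were), with a median log2 ratio of 1.86. With a mean of at least 1 CPM required the median was 0.93, still the highest of the lists, since low members such as Cxcl14 (2.36 and 0.351 CPM) and Ptges (2.51 and 1.80 CPM) then counted. Il1rl1, whose product ST2 is the receptor of interleukin 33, stood at 61.0 CPM at week 4 (59.8 to 62.3) and 541 CPM at week 12 (537 to 545), a log2 ratio of 3.13. It was found in 16.0% of thinned cells at week 4 and 66.2% at week 12, and unthinned in 34.6% and 86.8%. Its ligand Il33 was level, at 11.2 and 12.2 CPM. Csf1, the growth factor of macrophages and osteoclast precursors, stood at 37.7 and 94.0 CPM. The monocyte attractants Ccl2 and Ccl7 stood at 8.89 and 51.8 CPM, and at 3.33 CPM (3.05 to 3.64) and 42.6 CPM (41.6 to 43.7).

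The chemokine sums lay in few cells, unlike Il1rl1. Ccl2 was found in 2.04% of thinned cells at week 4 (1.72% to 2.41%) and in 6.67% at week 12 (6.13% to 7.25%), and unthinned in 4.77% and 14.4%. The 1% of cells with most of them held 77.0% of the thinned Ccl2 UMIs at week 4 and 66.0% at week 12. For Il1rl1 these shares were 22.3% and 12.5% and for Akap12 20.3% and 6.65%. Both of these genes stood at higher CPM than Ccl2, and such shares depend on the level of a gene as well. Ccl7 was found in 39.1% of the week 12 cells with Ccl2 (34.9% to 43.5%) and in 4.59% of those without it (4.12% to 5.09%), and at week 4 in 15.8% (10.2% to 23.0%) and 0.57% (0.403% to 0.781%). The chemokines Cxcl1 and Cxcl10 and the cytokine Il6 were under the filter, at 0.628 and 2.86, 0.58 and 2.70, and 1.24 and 3.25 CPM. The macrophage and monocyte markers, as given above, summed to 16.2 and 11.4 CPM, and their part in the chemokine levels was not tested.

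Growth factor genes at least 2-fold higher outnumbered those lower, as they did among all measured genes (2.74% higher and 1.87% lower). In the list of FGF, PDGF, EGF and HGF family genes 4 of 10 measured were at least 2-fold higher and 1 at least 2-fold lower, with a median log2 ratio of 0.63. Fgf18, a factor that acts on cartilage and bone cells, stood at 1.45 CPM (1.26 to 1.66) and 23.4 CPM (22.6 to 24.2), a log2 ratio of 3.32. Neuregulin (Nrg1), a ligand of ErbB receptors, stood at 6.19 and 34.0 CPM and the neurotrophin Bdnf at 17.7 and 48.5 CPM. Fgf7, an epithelial growth factor from stroma, was lower at week 12, at 12.9 and 5.46 CPM. In the insulin-like growth factor list 3 of 8 were at least 2-fold higher and 0 at least 2-fold lower, with a median of 0.53. Igf1, a main growth factor of bone, stood at 49.1 and 161 CPM, its binding protein Igfbp3 at 106 and 316 CPM and its receptor Igf1r at 44.5 and 90.0 CPM. Among angiogenic factors Vegfc, which grows lymph vessels, stood at 7.85 and 23.7 CPM and placental growth factor (Pgf) at 90.1 and 41.4 CPM, and the list's median was -0.22 over 6 genes, or 0.35 with every cell thinned to 5000 UMIs.

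Of the ligands of the TGF beta family Tgfb3 and Tgfb2 were higher at week 12, at 243 and 592 CPM and at 142 and 291 CPM, while Tgfb1 was level, at 87.6 and 82.7 CPM. The receptor Tgfbr1 stood at 20.2 and 25.5 CPM and the feedback inhibitor Smad7 at 18.3 and 43.0 CPM. Of 12 TGF beta genes 5 were at least 1.5-fold higher (8.06% of all measured genes were), with a median log2 ratio of 0.52. Lower by that much were 0 (4.39% of all measured genes were). In the BMP list the antagonists differed in both directions. Grem1, a gremlin that binds BMP ligands, stood at 58.3 and 187 CPM, while the antagonists chordin (Chrd) and noggin (Nog) were lower at week 12, at 10.5 and 4.88 CPM and at 13.7 and 8.85 CPM. The ligand Bmp4 stood at 11.4 and 19.9 CPM. Id1, a target that BMP signalling switches on, stood at 110 and 293 CPM and Id3 at 845 and 1091 CPM. Of 16 BMP genes 6 were at least 1.5-fold higher and 1 lower by that much (8.06% and 4.39% of all measured genes were). Their median was 0.30. WNT genes had a median of 0.04, or -0.02 with TMM factors: Wnt5a, a ligand of the noncanonical branch, stood at 9.04 and 24.1 CPM, the receptor Fzd1 at 70.5 and 154 CPM and the secreted antagonist Sfrp4 at 12.7 and 5.05 CPM. Sfrp2, a relative of Sfrp4, stood at 5.68 CPM at week 4 and was not listed at week 12.

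Heat shock, immediate early and antioxidant genes at least 1.5-fold apart were higher at week 12. Of all measured genes 8.06% were at least 1.5-fold higher and 4.39% at least 1.5-fold lower. Of 13 heat shock genes 4 were at least 1.5-fold higher, 2 of them at least 2-fold, and 0 were lower by that much, with a median log2 ratio of 0.44. In all 12 leaned higher and 1 lower, and the sign of Hsp90ab1, Dnaja1 and Hspa8 changed under an alternative. Among them Cryab, the small heat shock protein alpha B crystallin, was far above the rest, at 77.6 CPM (76.2 to 79.1) and 882 CPM (877 to 887), a log2 ratio of 3.49, and was found in 22.8% and 84.6% of thinned cells. Hspb1, a small heat shock protein that guards actin, stood at 836 and 1377 CPM. Hspa1a stood at 14.7 and 34.7 CPM, but it has a near-identical copy, Hspa1b, so the reads of the pair may be split. Immediate early genes, switched on within minutes of a stimulus, were at least 1.5-fold higher in 9 of 18 cases and lower by that much in 0, with a median of 0.62, or 0.24 with a mean of at least 50 CPM required. Fosl1, which pairs with Jun proteins, stood at 3.81 and 19.7 CPM and the orphan receptor Nr4a1 at 5.41 and 22.6 CPM, while Fos and Jun were slightly lower, at 94.5 and 79.0 CPM and at 98.5 and 89.6 CPM. In the antioxidant list 6 of 19 were at least 1.5-fold higher and 0 lower by that much, with a median of 0.28, or 0.18 at that stricter filter. In the list of the unfolded protein and amino acid response 0 of 21 were at least 1.5-fold higher and 2 lower by that much. With so few past the limit, no direction of this list is read from them. In it 8 leaned higher and 13 lower, and the median was -0.16. Nqo1, a quinone reductase under NRF2 control, stood at 494 and 1226 CPM and Gpx1, which removes peroxides, at 467 and 946 CPM.

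Genes of the hypoxia response were lower at week 12, except Vegfa. Of 18 genes 13 were listed and 12 measured: 11 were lower and 1 higher, with a median log2 ratio of -0.53. At least 1.5-fold lower were 6 (4.39% of all measured genes were) and at least 2-fold lower 3 (1.87%). Bnip3, which takes mitochondria into autophagy, stood at 222 CPM (220 to 225) and 99.0 CPM (97.3 to 101), a log2 ratio of -1.16. Ndrg1, a stress protein, stood at 13.6 and 3.60 CPM and Slc2a1, the glucose carrier GLUT1, at 35.0 and 22.0 CPM. Vegfa, the vessel growth factor, was higher at week 12, at 115 CPM (113 to 117) and 214 CPM (212 to 217). Ndufa4l2, a mitochondrial protein known as a hypoxia target and not on the list, stood at 78.2 CPM (76.7 to 79.6) and 1.07 CPM (0.902 to 1.25), a log2 ratio of -5.26. In the glycolysis list, with a median of -0.20 over 14 genes, the lactate exporter Slc16a3 was furthest lower, at 29.0 and 6.22 CPM, and the next 3 by size of log2 ratio lay between -0.65 and 0.53. Under the other treatments the hypoxia list had a median of 0.28 (zoledronate), 0.60 (CGRP) and 0.51 (Mg), so the control pair was the only pair with a negative median, and this difference was not tested.

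The promoters of 4 of these genes are shown: Bnip3, P4ha1 and Slc2a1, which were lower at week 12, and Vegfa, which was higher. Each runs from 250 bases before to 50 after the start site, from RefSeq on build GRCr8, which is not the build of the counts. Capitals mark matches to ACGTG, a form of the core of the hypoxia response element, on either strand (CACGT on the strand shown). Where matches on both strands overlap the run in capitals is CACGTG. Other forms of the core were not searched for and are not marked.
Bnip3 promoter, GRCr8 chr1:203154913-203155212, minus strand: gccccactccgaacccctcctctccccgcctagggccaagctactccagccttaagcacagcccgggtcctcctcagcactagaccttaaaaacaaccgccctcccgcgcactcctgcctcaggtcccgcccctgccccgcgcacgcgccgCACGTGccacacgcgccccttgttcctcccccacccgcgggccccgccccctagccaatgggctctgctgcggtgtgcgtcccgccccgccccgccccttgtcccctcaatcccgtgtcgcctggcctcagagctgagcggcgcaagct
P4ha1 promoter, GRCr8 chr20:27844796-27845095, plus strand: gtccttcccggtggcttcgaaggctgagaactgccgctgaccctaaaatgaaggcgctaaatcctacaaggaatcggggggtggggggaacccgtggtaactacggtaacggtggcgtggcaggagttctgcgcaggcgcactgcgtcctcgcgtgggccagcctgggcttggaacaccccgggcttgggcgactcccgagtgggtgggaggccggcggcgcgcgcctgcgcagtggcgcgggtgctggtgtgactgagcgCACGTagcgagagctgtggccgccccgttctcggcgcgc
Slc2a1 promoter, GRCr8 chr5:138002272-138002571, plus strand: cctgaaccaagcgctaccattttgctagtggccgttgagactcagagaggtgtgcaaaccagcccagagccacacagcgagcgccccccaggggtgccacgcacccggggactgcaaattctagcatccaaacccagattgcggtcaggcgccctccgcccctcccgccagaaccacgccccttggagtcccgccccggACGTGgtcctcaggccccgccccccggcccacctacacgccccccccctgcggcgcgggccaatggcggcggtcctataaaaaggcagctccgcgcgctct
Vegfa promoter, GRCr8 chr9:22452604-22452903, plus strand: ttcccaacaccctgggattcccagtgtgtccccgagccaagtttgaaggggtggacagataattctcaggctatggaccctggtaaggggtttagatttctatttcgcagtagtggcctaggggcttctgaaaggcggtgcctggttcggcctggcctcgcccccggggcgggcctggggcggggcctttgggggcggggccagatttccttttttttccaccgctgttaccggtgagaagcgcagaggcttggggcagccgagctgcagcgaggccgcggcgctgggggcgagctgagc

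The Bnip3 promoter holds overlapping matches on both strands, those of P4ha1 and Slc2a1 hold 1 each, and the Vegfa window holds 0. Of the 12 measured hypoxia genes 10 had a promoter entry and 9 of these a match. A match was held by 6444 of all 33469 RefSeq promoters (19.3%), and by 1643 of the 5801 measured genes with an entry (28.3%). A match describes these letters in this window only. The promoters shown were chosen with the levels of their genes known, and a link between a match and the direction of a gene was not tested.

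Genes of the lysosome were lower at week 12. Of 15 measured, 14 were lower and 1 was higher, with a median log2 ratio of -0.51. At least 1.5-fold lower were 6 (4.39% of all measured genes were) and at least 2-fold lower 3 (1.87%). Cathepsin H (Ctsh), a lysosomal protease, stood at 291 and 114 CPM. Cathepsin K (Ctsk), the collagen-cutting protease of osteoclasts that fibroblasts and periosteal cells also make, stood at 115 and 50.8 CPM. Osteoclast markers, 6 of 10 listed, summed to 130 and 63.0 CPM, of which Ctsk is the greater part, and their defining receptor Tnfrsf11a stood at 0.054 and 0.193 CPM. Of the matrix metalloproteases Mmp23 was higher at week 12, at 50.3 and 160 CPM, and the aggrecan-cutting Adamts5 lower, at 9.25 and 2.18 CPM. Mmp13, the collagenase of hypertrophic cartilage, was under the filter at 3.84 and 0.0859 CPM. Serpine2, an inhibitor of thrombin and plasminogen activators, stood at 118 and 29.8 CPM and Serpinf1, an antiangiogenic serpin that bone mineralisation needs, at 1305 and 618 CPM.

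Ribosomal protein genes were lower at week 12 in 28 of 29 cases by small amounts, with a median log2 ratio of -0.28. At least 1.5-fold lower were 2 (4.39% of all measured genes were). Rps6, the S6 protein of the small subunit, stood at 1806 and 1160 CPM and Rpl11 at 2817 and 2974 CPM. Many ribosomal protein genes have processed copies, so single values are uncertain. Per 5000 UMIs of a cell the list had a median of 534 UMIs at week 4 and 433 at week 12. Other large housekeeping lists were level. The proteasome list had 0 of 25 genes past 1.5-fold in either direction. Of 26 nuclear-encoded genes of oxidative phosphorylation only Cox6a2, a muscle form of a cytochrome oxidase subunit, passed 1.5-fold, at 120 and 60.1 CPM. The mevalonate and cholesterol list, whose enzyme Fdps is the target of zoledronate, had 10 of 20 genes higher and 10 lower, 1 past 1.5-fold (Msmo1, 120 and 223 CPM), and a median of -0.02. Fdps itself stood at 474 and 368 CPM.

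Mitosis genes had near the same summed level in both control libraries, but more cells held at least 2 UMIs of the list at week 12. Each measured gene of the list except Top2a, Nusap1 and Kif11 was found in more thinned cells at week 12. Ube2c, for example, was found in 25.2% at week 4 and 33.7% at week 12. By contrast Top2a was found in 14.9% and 10.7%, Nusap1 in 12.3% and 9.79% and Kif11 in 9.84% and 9.22%. Of 19 G2/M genes 11 were higher and 8 lower, 0 at least 1.5-fold higher and 2 at least 1.5-fold lower, and the median log2 ratio was 0.04, or -0.03 with TMM factors. Top2a, the topoisomerase that untangles replicated DNA, stood at 71.4 and 40.8 CPM and Mki67, the Ki-67 antigen, at 122 and 96.5 CPM, whereas cyclin A2 (Ccna2) stood at 47.6 and 59.4 CPM. Summed G2/M UMIs came to 1361 CPM at week 4 and 1320 CPM at week 12. Cells with at least 2 G2/M UMIs after thinning made up 35.3% at week 4 (34.1% to 36.4%) and 46.4% at week 12 (45.3% to 47.5%), and unthinned 57.9% and 69.5%. Thinned cells with 0 such UMIs made up 48.5% and 36.0%, while the 95th percentile was 33 UMIs a cell at week 4 and 29 at week 12. Of 19 S phase genes 0 passed 1.5-fold in either direction, with a median of 0.05, or -0.02 with TMM factors. The same G2/M genes had a median of -1.79 under zoledronate, -1.65 with CGRP and -0.66 with Mg, week 12 over week 4, and the S phase genes one of -1.03, -0.88 and -0.42. The control pair thus stood nearest to 0, and this difference was not tested. Of 19 G1 and p53 genes 7 were at least 1.5-fold higher and 1 lower by that much (8.06% and 4.39% of all measured genes were). Cyclin D1 (Ccnd1), which drives G1, stood at 99.1 and 258 CPM and the CDK4 inhibitor gene Cdkn2a at 9.16 and 29.7 CPM. Its neighbour Cdkn2b stood at 22.0 and 51.1 CPM and the p53 target Ccng1 at 147 and 319 CPM. Gadd45a, a growth arrest gene, was lower at week 12, at 162 and 80.7 CPM.

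The 15 genes furthest higher at week 12 included several not on these lists. Akap12, a scaffold that holds protein kinase A, stood at 154 CPM at week 4 (152 to 156) and 1659 CPM at week 12 (1652 to 1666), a log2 ratio of 3.42. In the other 6 libraries it lay between 159 and 334 CPM, so the week 12 control library stood alone. It was found in 27.7% of thinned cells at week 4 (26.7% to 28.8%) and 86.3% at week 12 (85.5% to 87.0%), and unthinned in 52.5% and 95.6%. Il1rl1 had the same pattern over the libraries, between 76.5 and 106 CPM in the other 6 against 541 CPM. At week 12 Akap12 was found in 89.4% of cells with Il1rl1 and 80.1% of cells without, and at week 4 in 38.6% and 25.6%. Lce1m, a gene of the cornified envelope of skin, had with Stmn2 the highest log2 ratio at 1 CPM added, 4.74 for both, whereas by plain ratio of CPM Esm1 was furthest, at 36.7-fold against 31.0-fold for Lce1m and 31.4-fold for Stmn2. Lce1m stood at 6.22 CPM (5.82 to 6.63) and 192 CPM (190 to 195). Stmn2, a stathmin that regulates microtubules and is best known from neurons, stood at 5.44 CPM (5.07 to 5.83) and 171 CPM (169 to 173). Lce1m was found in 33.7% and Stmn2 in 35.9% of unthinned week 12 cells, against 2.60% and 2.70% at week 4. After thinning Stmn2 was found in 23.9% of all week 12 cells, in 28.2% of the cells with Lce1m (26.0% to 30.5%) and in 22.8% of those without (21.8% to 23.9%). Esm1, endocan, a secreted proteoglycan of activated endothelium, stood at 2.11 and 77.5 CPM, while the endothelial marker Kdr stood at 0.0675 CPM and was not listed at week 12. Phlda1, a gene of growth factor and stress responses, stood at 39.0 and 283 CPM. Serpinb9, the inhibitor of granzyme B, stood at 10.0 and 75.8 CPM and Pkp2, plakophilin 2 of the desmosome, at 7.82 and 44.3 CPM.

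Among the 15 genes furthest lower were also Lbp, Anxa8, Olfml2b and Rassf4. Lbp, the lipopolysaccharide binding protein, stood at 97.2 CPM (95.6 to 98.8) and 1.69 CPM (1.48 to 1.92), a log2 ratio of -5.19. The annexin Anxa8 stood at 113 and 19.9 CPM, Olfml2b, a secreted olfactomedin-like protein, at 59.7 and 12.8 CPM and Rassf4, a Ras association domain protein, at 43.9 and 9.26 CPM.

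Cell by cell the libraries were largely apart for both sets of 15, which is described without a test because the genes were chosen for their difference in these cells. Per 5000 UMIs of a cell week 4 cells held a median of 1 UMI of the 15 higher genes (95th percentile 9), and week 12 cells a median of 22 (5th percentile 7). Of the 15 lower genes, week 4 cells held a median of 12 UMIs (5th percentile 3) and week 12 cells of 1 (95th percentile 6). Of the week 4 cells 9.19% reached the 5th percentile of week 12 for the higher set, and of the week 12 cells 18.5% reached the 5th percentile of week 4 for the lower set. Single genes weigh heavily in these sums: Thbs2 made up 55.7% of the lower set's UMIs at week 4 and Akap12 31.7% of the higher set's at week 12. The sums do not show how members such as Ccl2 and Ccl7 were spread.

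**Figure D4:**
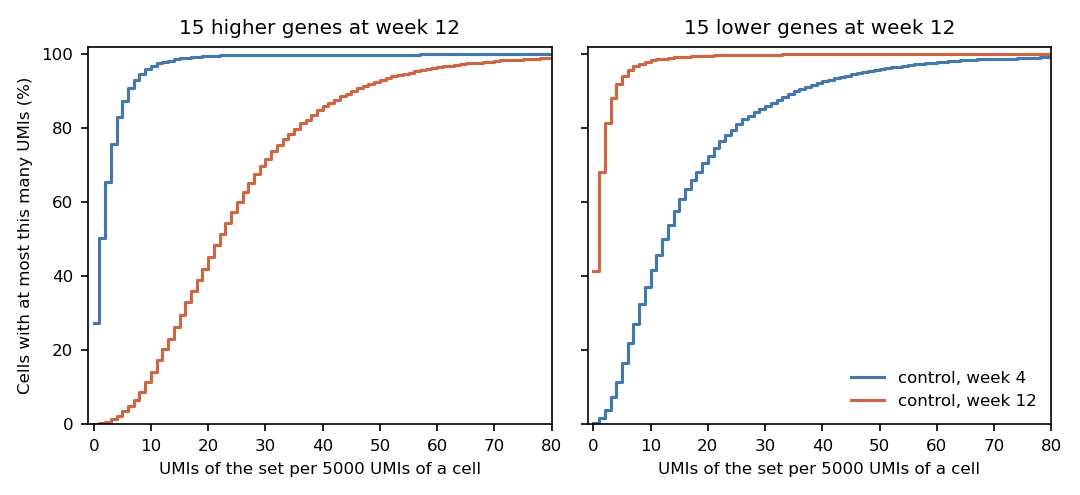
Share of cells (y axis, percent) that hold at most a given number of UMIs (x axis, per 5000 UMIs of the cell) of the 15 higher genes (left) and of the 15 lower genes (right), for the week 4 and the week 12 control library (lines). The lines lie far apart, with medians of 1 and 22 on the left and of 12 and 1 on the right, and the genes were chosen for this difference.

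Variation between the cells of a library was led by Col1a1 at week 4 and by Ftl1 at week 12. By the ratio of variance to mean of thinned UMIs, over genes of at least 20 CPM, Col1a1 (24.5), Mgp (24.4), Spp1 (20.4), Fth1 (15.6) and Fn1 (13.4) led at week 4. At week 12 the ferritin chains Ftl1 (41.0) and Fth1 (21.6), which store iron, led with Ccl2 (20.8), Col1a1 (18.2) and the actin-binding Tmsb4x (17.8). Ferritin genes have many processed copies, so their values are uncertain. Ftl1 had a median of 44 thinned UMIs a cell at week 4 and 61 at week 12, and a highest value of 267 and 858. Mgp was unevenly spread in both libraries: the 10% of cells with most of it held 73.8% of its UMIs at week 4 and 83.9% at week 12.

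The pairs of weeks under the other treatments share no library with the control pair and are set beside it without a test. Over the same 7236 genes 0.912% were at least 2-fold higher and 2.67% at least 2-fold lower at week 12 under zoledronate, 2.6% and 3.16% with CGRP, and 2.05% and 1.78% with Mg. Of the 15 higher genes 12 were higher at week 12 in all 3 other treatments, 5 of them at least 2-fold in all 3, and 3 reached 2-fold in none. Col4a1 had a log2 ratio of 2.68 (zoledronate), 2.63 (CGRP) and 3.19 (Mg), Ccl7 of 3.72, 4.76 and 6.23, and Ccl2 of 3.28, 3.57 and 5.09. Akap12 had 0.11, 0.03 and 0.14, and Il1rl1 -0.18, 0.03 and 0.02. Of the 15 lower genes 8 were lower in all 3 and 4 at least 2-fold lower in all 3. Acan had -3.04, -2.02 and -2.68 and Hapln1 -2.13, -4.58 and -5.61. Dcn had 1.40, 4.12 and -2.10 and Lum -0.28, 2.89 and -4.17, and in the CGRP pair it was the week 4 library that was low, at 9.31 CPM for Dcn and 21.7 CPM for Lum. In Dcn, Lum, Thbs2 and Tnn the library labelled CGRP week 4 stood nearer to the week 12 control than its week 12 partner did. Whether these 2 libraries could have been exchanged cannot be told from the labels, and the direction of each CGRP ratio rests on them. Col4a1, Ccl2, Acan and Hapln1 had the direction of the control pair in the CGRP pair as labelled. The small leucine-rich proteoglycans as a list had medians of -0.28, 0.89 and -2.05 in these pairs. The week 12 control library was the highest of the 8 for 10 of the 15 higher genes and the lowest of the 8 for 11 of the 15 lower genes, and the week 4 control library was the lowest of the 8 for 12 of the higher genes. These genes were chosen for their difference between the control libraries, so such ranks follow in part from the choice.

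**Figure D5:**
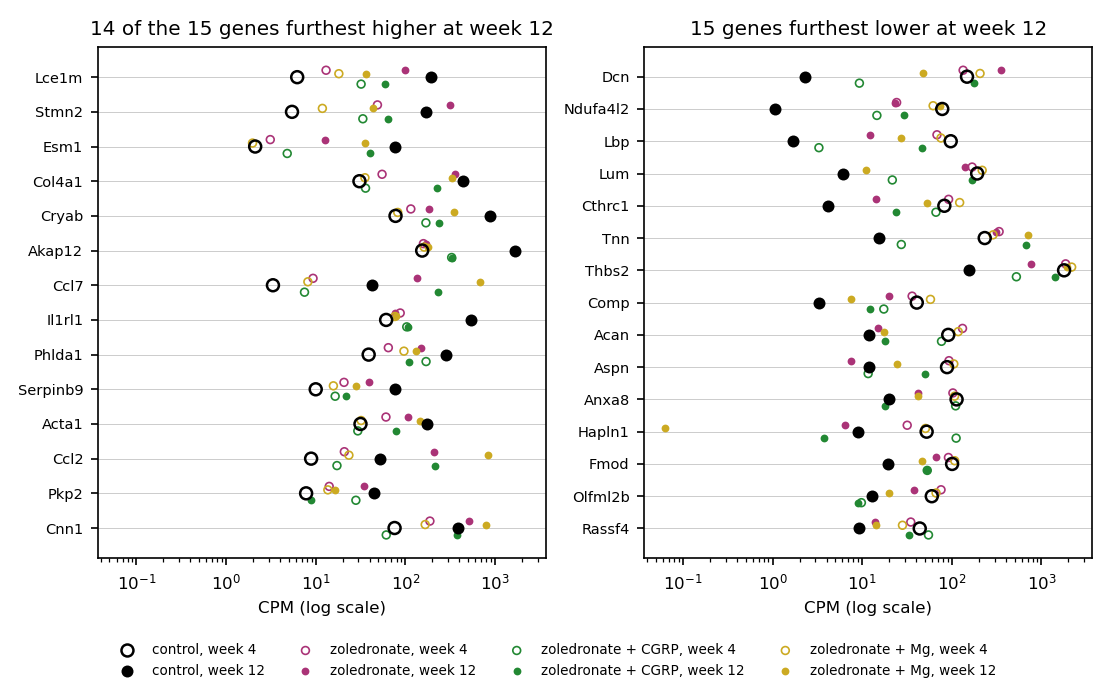
Level (x axis, CPM, log scale) of 14 of the 15 genes furthest higher (left) and of the 15 furthest lower (right) in the week 12 control library, in each of the 8 libraries (open circles week 4, filled circles week 12; black control, other colours the zoledronate treatments). The filled black circle of Akap12 stands at 1659 CPM and all other libraries at 334 CPM or less, while Dcn is low in the week 12 control (2.28 CPM) and the week 4 CGRP library (9.31 CPM).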

How the data were processed

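Cells of the fracture callus were sequenced with the 10x Chromium V3 chemistry in 8 libraries, 1 for each treatment and week, per the series' design text. The authors deposited 1 table of UMI counts a library, genes by barcodes, as whole numbers. Per the submitters' processing notes, reads were aligned with STAR to Rnor_6.0. Its version and the annotation, cell calling and filters used were not given in the sources used here. No column was left unmapped (0).

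UMI counts of barcodes with at least 5000 UMIs were summed per gene and scaled to CPM. Log2 ratios used a pseudocount of 1 CPM, and genes needed a mean of at least 5 CPM over both control libraries. Named are the 15 genes furthest higher and lower at a mean of at least 20 CPM, up to 4 members of each gene list with the largest ratio, members of the lists described in depth, and the 5 genes of highest variance over mean. Some genes are not reported here by name. Other members named beside them were chosen after their values were seen. The members and lists were chosen with earlier results of these data known. With 1 library a group no test was run. Doublets were not called and were treated as present; an alternative leaves out the 5% of cells with most UMIs. Other alternatives varied the UMI limit, cell weight, scaling (TMM of edgeR 4.0.16), pseudocount, filter and dividing cells. Scripts were tested on simulated data and used Python 3.11.15, numpy 2.4.6, scipy 1.17.1, pandas 2.3.3 and R 4.3.3.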

Additional observations from a re-analysis of the deposited data

Results flagged for a closer look

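Some of the 30 named genes moved in opposite directions between weeks under another treatment, by at least 1.5-fold there. With 1 library for each treatment and week, none of these differences was tested. Phlda1 and Pkp2, higher at week 12 in the control pair, had log2 ratios of -0.64 and -1.56 in the CGRP pair. Of the genes lower at week 12 in the control pair, Dcn had 1.40 under zoledronate and 4.12 with CGRP, and Tnn 4.58 with CGRP and 1.29 with Mg. In the CGRP pair Lbp had 3.45, Lum 2.89, Aspn 2.03, Thbs2 1.44 and Ndufa4l2 0.96. Whether the CGRP libraries of the 2 weeks could have been exchanged cannot be told from the labels. By the labels 7 of the 15 lower genes were higher at week 12 in the CGRP pair by this measure.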

How the results depend on the processing

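With a mean of at least 50 CPM required, 2471 genes were left, and of these 64 were at least 2-fold higher, 39 at least 2-fold lower, 211 at least 1.5-fold higher and 98 at least 1.5-fold lower; fewer genes tested account for the smaller counts. Under the other alternatives each of these 4 counts stayed within 1.5 times its main value. TMM factors gave 175 genes at least 2-fold higher at week 12 and 150 lower. They gave 491 genes at least 1.5-fold higher at week 12 and 389 genes at least 1.5-fold lower at week 12, and moved the median log2 ratio of all genes from 0.06 to -0.0046. All 30 named genes kept their direction and 2-fold size under the alternatives to cells, scaling and pseudocount; a filter leaves a gene's ratio as it is, and 18 of the 30 pass a mean of 50 CPM. Of the 50 pathway lists 27 had a median of at least 0.25 in size, and 24 to 29 had under the alternatives. The median of 15 lists changed sign under an alternative. Of these, 3 were among the 27: with a mean of at least 50 CPM required plasminogen activation went from 0.38 to -1.08 (-0.31 without dividing cells), the neuropeptide and CGRP system from 0.33 to -1.40 and class I antigen presentation from -0.26 to 0.45. In all 13 of the 27 changed sign or moved by over 1.5 times, 11 of them only under another filter on mean CPM, which changes the genes in a list. The insulin-like growth factor list went to 0.15 and the TGF beta list to 0.32 at 1 CPM, the BMP list to 1.04, osteoclast regulators to 0.89, the tendon list to -1.30 and stem and surface markers to 0.57 at 50 CPM, and integrins to 0.20 without dividing cells. Dividing cells were those with at least 2 thinned UMIs of the G2/M list, so that list's median of 0.66 without them was read after selection on its own genes. No paired analysis was possible because each group is 1 library. Depth limits low genes: at 5 CPM or more in both libraries the intervals reach up to 7.68% above the value. They reach further where 1 library lies lower, as for Ndufa4l2 at week 12 (1.07 CPM, 0.902 to 1.25).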

Other observations

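Taken by CPM difference, and chosen after the values were seen, the genes that differed most were type I collagen and S100a6. S100a6, a calcium-binding protein of the S100 family, stood at 8682 CPM at week 4 and 17830 CPM at week 12 in the control libraries, and between 9713 and 14233 CPM in the other 6. Its relative S100a4 stood at 3905 and 6606 CPM. Ccdc80, a secreted matrix protein, stood at 4953 and 1620 CPM, the highest and the lowest value of the 8 libraries, which otherwise lay between 2110 and 4566 CPM.

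Skeletal stem and mesenchymal surface markers had 4 of 13 genes at least 2-fold higher and 2 at least 2-fold lower at week 12. Of all measured genes 2.74% and 1.87% were. Cd200, a surface protein that dampens myeloid cells, stood at 31.8 and 128 CPM and Thy1 at 55.2 and 95.6 CPM, while endoglin (Eng) stood at 16.4 and 6.80 CPM. Penk, which encodes enkephalin peptides, stood at 230 and 86.5 CPM. Among position genes of the limb Hoxc8 stood at 25.1 and 57.4 CPM and Hoxd9 at 13.8 and 4.79 CPM. Of 6 interferon response genes 1 was at least 1.5-fold lower and 0 higher by that much (4.39% and 8.06% of all measured genes were). Of the 6 genes 0 reached 2-fold, and the median log2 ratio was -0.44. Ddit4, which restrains mTOR, stood at 43.3 and 13.5 CPM and Sgk1, a kinase under glucocorticoid control, at 24.9 and 75.9 CPM. Trib3 and Ddit3, genes of the unfolded protein response, stood at 86.7 and 36.8 CPM and at 149 and 85.3 CPM. The Schwann and nerve markers, 7 of 8 listed, summed to 31.7 and 8.35 CPM, of which S100b, also a gene of cartilage cells, made up 28.9 and 5.17 CPM. The 10 magnesium channel and transporter genes measured had 0 past 1.5-fold, with Nipa2 at 30.0 and 41.5 CPM and Trpm7 at 43.9 and 50.3 CPM.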
